A study of Mus musculus with 2 samples.

Results

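The colony stimulating factors are the secreted proteins that keep macrophages, dendritic cells and granulocytes alive and drive their production. The 8 genes described here were taken by name: the 4 ligands Csf1, Il34, Csf2 and Csf3 and the 4 receptor chains Csf1r, Csf2ra, Csf2rb and Csf3r. All 8 were found among the 22975 genes present in both count tables. The tables hold single-cell RNA sequencing of whole lung from C57BL/6 mice given 400 mg/kg silica into the trachea, with lungs taken 3, 7 and 21 days later. One library came from wild-type (WT) mice and one from CCR2-/- mice (CCR2KO), which lack the chemokine receptor that classical monocytes use to leave the marrow. Both groups had received silica, and no untreated lung enters here.

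Cells were dissociated with Liberase, passed over a Percoll density gradient, labelled with antibody hashtags (9 tags in the WT library, 8 in CCR2KO) and loaded, 20000 per library, on a BD Rhapsody microwell cartridge. Neither the day nor the animal behind a tag is given in the labels used here, so a tag is treated as a separate cell suspension, and p-values over tags measure only the spread between suspensions. Genotype and cartridge were the same split, and their effects cannot be told apart. After filtering, 16857 WT and 14882 CCR2KO cells remained. Tags held 63327246 to 94948946 reads in WT and 56541715 to 88359317 in CCR2KO. The tagged cells of both libraries had 318 cell numbers in common, out of numbers running up to 884712. Ccr2 itself, summed over all cells, lay between 53.8 and 101 CPM (reads of the gene per 1000000 reads) in the WT tags and between 1.45 and 4.39 CPM in the CCR2KO tags, so the labels and the targeted gene go together. Cell classes are clusters named by marker genes, so that "neutrophil" below stands for neutrophil-like cells, and likewise for the others. Of these, 26 classes had at least 3 tags of at least 10 cells in each genotype.

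Csf1 (macrophage colony stimulating factor, M-CSF) and Il34 are separate proteins that act on the same receptor, the tyrosine kinase encoded by Csf1r, on which most tissue macrophages and monocytes depend. Csf2 (GM-CSF) binds a pair of chains, the ligand-specific alpha chain Csf2ra and the signalling beta common chain Csf2rb, and in the lung its supply by alveolar epithelium maintains alveolar macrophages and surfactant clearance. Csf3 (G-CSF) acts through Csf3r and drives the making and release of neutrophils.

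In the GRCm38 annotation (GENCODE vM21) Csf1 spans 3:107741048-107760469 on the minus strand, and Il34 spans 8:110741829-110805924 on the minus strand. Csf2 lies at 11:54247271-54249667 (minus) and Csf3 at 11:98701263-98703629 (plus). Csf2ra is at 19:61223957-61228429 (minus), Csf2rb is at 15:78325752-78353847 (plus) and Csf3r at 4:126024550-126044440 (plus). Each value counts reads of the whole gene, and no exon or isoform was resolved. Il34, Csf2 and Csf1r each overlap an antisense gene that is also in the tables (Gm15894, Gm12223 and Hmgxb3), and since the strand setting of the counting is not given in the sources used here, reads of such a pair may not be separable.

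Csf2rb has a neighbour of nearly the same sequence, Csf2rb2 (15:78282507-78305721, minus), which encodes a beta chain specific to interleukin 3 in mice. Of 2631 aligned coding bases, 2505 (95.2%) were identical. The stretch below, which ends at the stop codon of Csf2rb2, shows how alike the genes are, with the bases that differ in capitals (5′ to 3′, coding strand, from the GENCODE transcripts).
Csf2rb: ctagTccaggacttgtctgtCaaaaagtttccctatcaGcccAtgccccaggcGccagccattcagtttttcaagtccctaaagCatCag
Csf2rb2: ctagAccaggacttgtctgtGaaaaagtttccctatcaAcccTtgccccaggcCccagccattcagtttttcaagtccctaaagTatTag
Over the whole Csf2rb transcript, 18.4% of 50-base windows occur unchanged in Csf2rb2. None of the windows in the last 300 bases do (0%), which is where a library primed at the 3′ end would read. Csf2rb values are therefore uncertain where reads fell in the shared part, and each Csf2rb test was repeated on the sum of both genes.

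Promoter sequence was at hand for 4 of the 8 genes (RefSeq, GRCm38.p6). Csf2ra and Csf3r are receptor genes of myeloid cells, and the windows shown hold the PU.1-type core GAGGAA (capitals; the factor PU.1, gene Spi1, is required for myeloid development), at 19:61228419-61228448 (minus) and 4:126024561-126024590 (plus).
Csf2ra: ttcccaacctgcagatGAGGAAGAGGAAgc
Csf3r: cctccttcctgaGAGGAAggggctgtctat
In Csf2ra the core stands at bases -14 to -9 and again at -8 to -3 before the RefSeq start, and in Csf3r at -86 to -81. The GENCODE spans given above begin at other bases. By those spans the Csf3r window lies inside the gene, and the Csf2ra window runs across the gene's start. Searched on both strands over the 250 bases before the RefSeq start, the same 6 letters occur in 23.3% of 32851 such windows. The Csf2 window held neither this core nor AP-1-type TGANTCA (6.75% of windows) nor CK-1-type GAGATTCC (0.755%). A match describes the letters only.

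The ligands came from different cells. Levels are given as CPM, the reads of a gene per 1000000 reads of a class within a tag, and were not compared between genes. Levels by class are a description with no test, since the classes come from the same cells.

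Csf1 was at its highest in neutrophils, at 565 to 1283 CPM over the 9 WT tags (median 971) and 832 to 1452 CPM over the 8 CCR2KO tags (median 1138). Within each genotype, every neutrophil value stood above every value of the fibroblast classes and of scar-type macrophages. Within cells thinned to 5000 reads, 32.2% of WT and 32.7% of CCR2KO neutrophils held a Csf1 read (34.2% in both without thinning), against 0.732% and 0.991% of B cells, where a read may come from free RNA. Among fibroblasts, adventitial cells had 108 to 232 CPM of Csf1 in WT and 69.0 to 321 CPM in CCR2KO, alveolar fibroblasts 109 to 157 and 110 to 222 CPM, and activated fibroblasts 78.9 to 158 and 81.1 to 201 CPM. These 3 ranges overlapped in both genotypes, so the fibroblast classes cannot be ordered. By share of all Csf1 reads, fibroblasts gave 36.1% in WT and 46.3% in CCR2KO and neutrophils 25.0% and 29.8%. Endothelium held 13.6% and 6.62%, and scar-type macrophages, a class led by Mmp12, Gpnmb, Inhba and Arg1, held 13.5% and 4.43%.

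Il34 had another distribution. Its reads were found mainly in activated fibroblasts (36.9% of all Il34 reads in WT, 37.1% in CCR2KO) and in alveolar type 2 cells (25.97% and 39.0%), the surfactant-making epithelium. Levels were low: 3.41 to 70.6 CPM (median 18.9) in activated fibroblasts of WT and 6.71 to 37.6 CPM (median 15.7) in CCR2KO. Alveolar type 2 cells had 6.37 to 34.6 CPM (median 22.8) in WT and 10.1 to 29.4 CPM (median 25.6) in CCR2KO. Pericytes, the mural cells of capillaries, had the highest mean, 26.4 CPM in WT and 31.8 CPM in CCR2KO, but ran from 0 to 68.3 and from 0.628 to 94.4 CPM. These ranges overlap, and no order among the 3 classes can be read.

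Csf2 was concentrated in 2 places. The highest level was in a class of T and innate lymphoid cells led by Il17a, Calca, Cd163l1, Il5 and Trdc, at 87.0 to 875 CPM in WT (median 263) and 13.1 to 1039 CPM in CCR2KO (median 440). That class was small, with 177 WT and 220 CCR2KO cells, and held 29.1% and 28.1% of all Csf2 reads. The more numerous alveolar type 2 cells (913 and 1546 cells) had 5.67 to 82.2 CPM in WT (median 33.1) and 33.0 to 67.1 CPM in CCR2KO (median 50.1), and held 44.3% and 57.0% of Csf2 reads. At 5000 reads per cell, 14.1% of WT and 12.1% of CCR2KO T and innate lymphoid cells held a Csf2 read (16.6% and 13.3% unthinned), and 5.80% and 7.46% of alveolar type 2 cells (9.99% and 11.4% unthinned). In B cells these shares were 0.0365% and 0.183%.

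Csf3 was a fibroblast transcript in both libraries, with 79.5% of its reads in fibroblasts in WT and 97.9% in CCR2KO. Adventitial fibroblasts had 0 to 226 CPM in WT (median 24.6) and 0 to 52.7 CPM in CCR2KO (median 25.2). Alveolar fibroblasts had 0 to 34.0 CPM in WT, with 5 of 9 tags at 0, and 0 to 70.4 CPM in CCR2KO (median 23.0). A single WT tag, tag 3, set the upper end in adventitial cells, where the next highest tag was at 61.7 CPM. Cells of capillaries and large vessels held 13.4% of Csf3 reads in WT and 0.0305% in CCR2KO, with 5 of the 9 WT tags at 0 there.

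**Figure D1:**
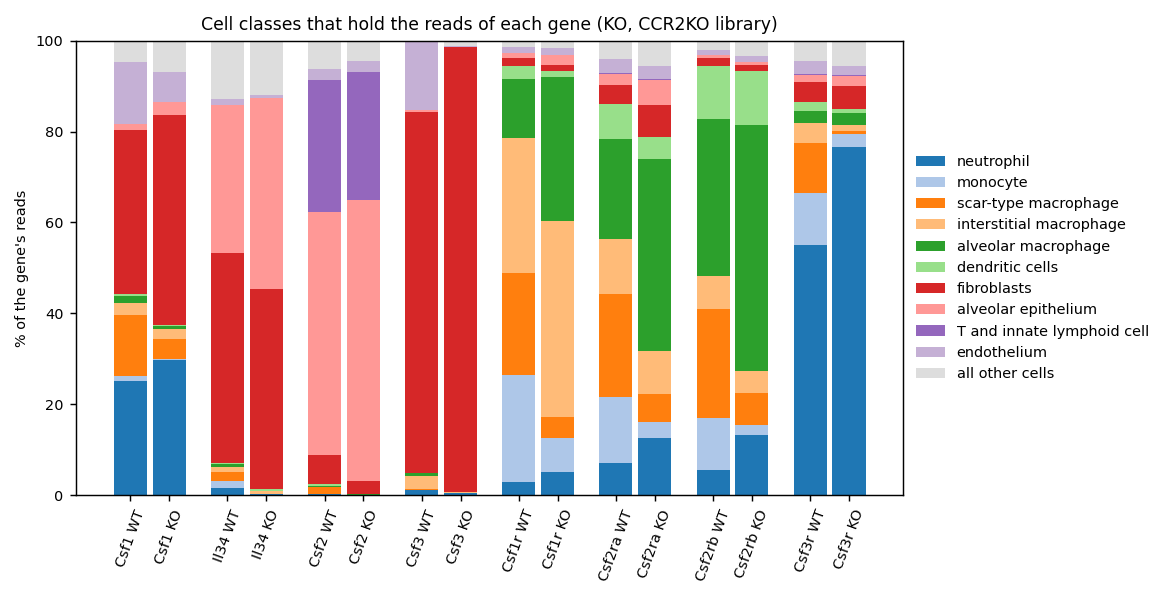
Share of each gene's reads (%, vertical axis) held by each family of cell classes, as stacked bars for the WT and CCR2KO (KO) libraries. Neutrophils and fibroblasts hold most Csf1 reads, alveolar epithelium and T and innate lymphoid cells most Csf2 reads, fibroblasts most Csf3 reads, and neutrophils 55.0% and 76.6% of Csf3r reads.

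The receptors had their highest levels in myeloid classes. Csf1r was highest in interstitial macrophages and monocytes. The monocyte class joined classical and nonclassical monocytes, with 5 markers of each among its top genes. Interstitial macrophages had 659 to 993 CPM in WT (median 860) and 519 to 1009 CPM in CCR2KO (median 780), and monocytes 534 to 1075 CPM (median 888) and 436 to 1239 CPM (median 798). The 2 classes overlapped throughout in both genotypes. Scar-type macrophages followed at 266 to 681 CPM of Csf1r in WT and 108 to 352 CPM in CCR2KO, and alveolar macrophages had 53.5 to 250 CPM and 116 to 234 CPM. Of all Csf1r reads in WT, 29.8% were in interstitial macrophages, 23.7% in monocytes, 22.4% in scar-type macrophages and 12.8% in alveolar macrophages. In CCR2KO these shares were 43.2%, 7.45%, 4.54% and 31.8%.

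The GM-CSF receptor chains went together. Over the 26 classes, the log2(CPM + 1) means of Csf2ra and Csf2rb had a Pearson r of 0.92, compared with 0.81 for Csf1r with Csf2ra, 0.80 for Csf1r with Csf2rb and 0.68 for Csf2ra with Csf3r. These are descriptions across classes that share libraries. Csf2ra was highest in neutrophils (164 to 492 CPM in WT, 226 to 331 CPM in CCR2KO) and monocytes (256 to 357 and 98.8 to 538 CPM) by mean, and overlapped there with scar-type macrophages (225 to 349 and 126 to 283 CPM) and conventional dendritic cells (128 to 347 and 19.4 to 298 CPM). Csf2rb lay between 302.4 and 601 CPM in WT alveolar macrophages and between 294 and 524 CPM in CCR2KO, and these cells held 34.5% and 54.1% of its reads. Scar-type macrophages (331 to 725 CPM in WT), mature dendritic cells (66.2 to 720 CPM) and neutrophils (225 to 645 CPM) overlapped with alveolar macrophages for Csf2rb. Reads of both chains in 1 cell, at 5000 reads per cell, were found in 25.5% of WT and 20.5% of CCR2KO alveolar macrophages, in 23.1% and 15.8% of scar-type macrophages, in 14.7% and 6.24% of conventional dendritic cells and in 13.4% and 4.86% of interstitial macrophages. Neutrophils had both in 6.87% and 4.56%, and T cells in 0.12% and 0.07%.

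Csf3r was mainly a neutrophil transcript, with 55.0% of its reads in that class in WT and 76.6% in CCR2KO. Neutrophils had 800 to 1363 CPM in WT (median 1117) and 830 to 1394 CPM in CCR2KO (median 1214). Monocytes were next at 53.9 to 143 CPM and 48.5 to 259 CPM, and no monocyte tag reached a neutrophil tag. At 5000 reads, 48.8% of WT and 41.4% of CCR2KO neutrophils held a Csf3r read (55.2% and 45.5% unthinned), against 4.97% and 4.00% of T cells.

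**Figure D2:**
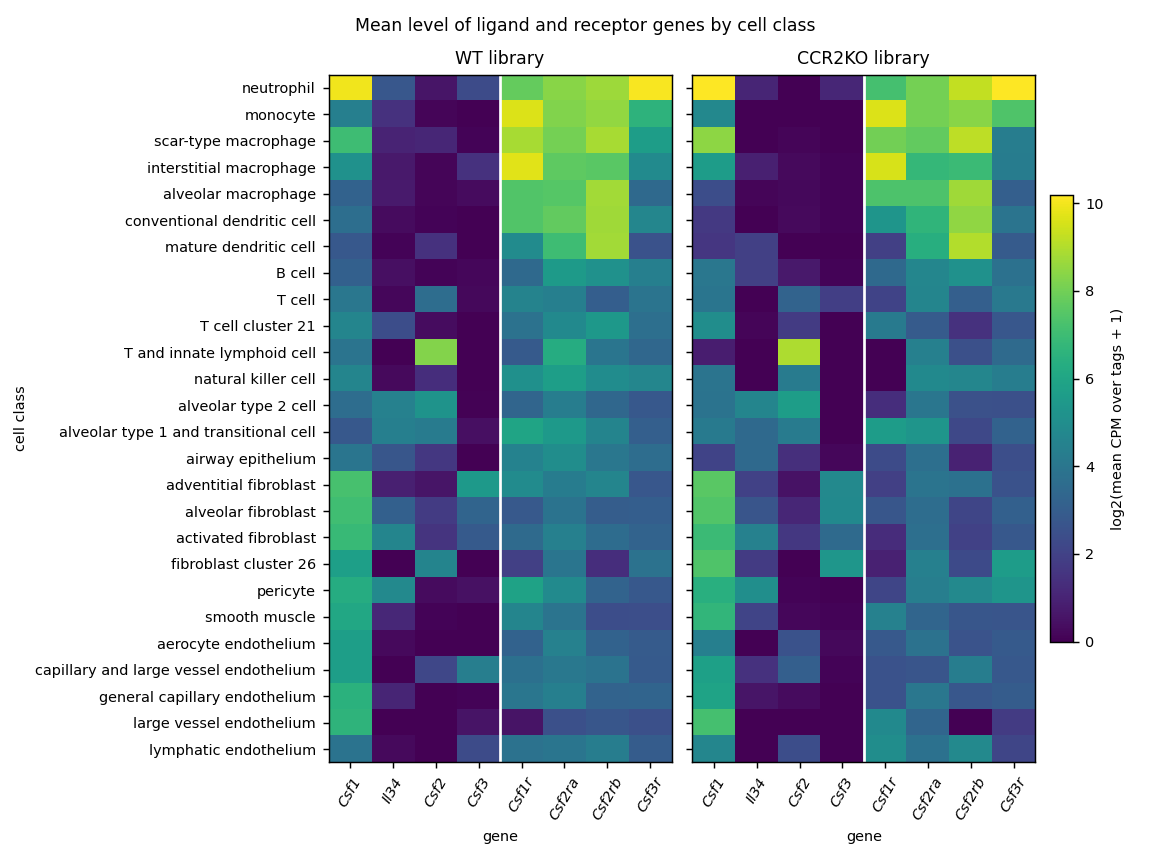
Mean level over tags of the 4 ligand genes (left of the white line) and 4 receptor genes in each of the 26 cell classes, as log2(mean CPM + 1), for the WT and CCR2KO libraries. Csf1 and Csf3r are brightest in neutrophils, Csf2 in T and innate lymphoid cells, and Csf1r in monocytes and interstitial macrophages.

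Genes with the most similar class pattern were taken as the 3 with the highest Pearson r of log2(CPM + 1) over the 26 classes. For Csf1r these were Ccl9 (0.92), Alox5ap (0.92) and Wfdc17 (0.91). For Csf2ra they were Pira1 (0.95), Mpeg1 (0.95) and Pira2 (0.95), and for Csf2rb they were Pira2 (0.97), Pira1 (0.96) and Clec7a (0.95). Csf3r was closest to Slfn4 (0.89), Gm19510 (0.87) and Gm4832 (0.85). Among the ligands, Csf3 was closest to Col28a1 (0.84), Cemip (0.82) and Serpina3c (0.82), Il34 to Zfp185 (0.86), Plekhh2 (0.86) and Nnat (0.84), Csf2 to Ret (0.87), Rnu1b2 (0.80) and Chdh (0.79), and Csf1 to Zfp970 (0.77), Sra1 (0.74) and Ddit3 (0.73).

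The genotype comparison over all cells of a tag asks how much of each transcript the lung suspension held without CCR2. In such sums, fewer cells of a type and less RNA per cell cannot be told apart. Csf1r, Csf2ra and Csf2rb were lower and Csf2 was higher in CCR2KO, while Csf1, Il34, Csf3 and Csf3r did not pass the test. Over all genes, 5.02% were called higher and 6.47% lower (edgeR).

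Csf1r ran from 109 to 215 CPM over the WT tags (median 160) and from 34.2 to 108 CPM over the CCR2KO tags (median 66.7). Every CCR2KO tag was below every WT tag. The log2 change was -1.22 (SE 0.20, edgeR quasi-likelihood test, Benjamini-Hochberg adjusted p = 0.000449, 9 against 8 tags). Csf2ra ran from 68.2 to 113 CPM in WT (median 101) and from 33.0 to 65.4 CPM in CCR2KO (median 51.2), again with no overlap, with a log2 change of -0.93 (SE 0.15, edgeR adjusted p = 0.000300). Csf2rb ran from 79.1 to 204 CPM (median 165) and from 65.1 to 131 CPM (median 106). Its groups overlapped, because WT tags 7 and 8 were as low as the CCR2KO tags. The log2 change of Csf2rb was -0.60 (SE 0.18, edgeR adjusted p = 0.0343). Leaving out any one of 11 tags (WT tags 1 to 6, CCR2KO tags 3, 4, 6, 7 and 8) took its adjusted p above the threshold, up to 0.0689.

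Csf2 ran from 2.64 to 8.46 CPM in WT (median 6.37) and from 7.69 to 16.0 CPM in CCR2KO (median 13.9). The 2 lowest CCR2KO tags fell within the WT range and the other 6 lay above it. Its log2 change was 1.03 (SE 0.22, edgeR adjusted p = 0.00391). For the genes that did not pass, the log2 changes were 0.20 for Csf1 (SE 0.09, edgeR adjusted p = 0.185), 0.51 for Il34 (adjusted p = 0.194), 0.29 for Csf3 (adjusted p = 0.734) and -0.14 for Csf3r (adjusted p = 0.678).

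**Figure D3:**
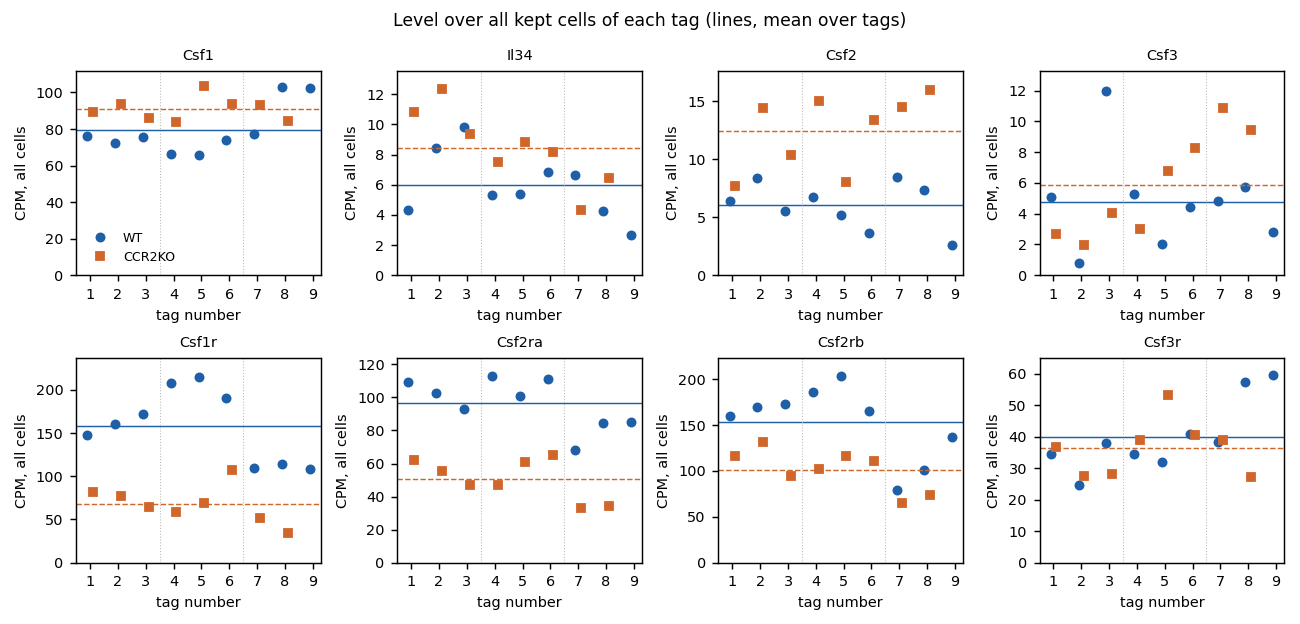
Level over all kept cells of each tag (CPM, vertical axis; tag number, horizontal axis) for the 8 genes, with WT as circles and CCR2KO as squares, horizontal lines for the mean over tags and dotted lines between spans of 3 tag numbers. Csf1r and Csf2ra do not overlap between genotypes, whereas Csf1, Il34, Csf3 and Csf3r do.

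Cell numbers moved with these changes. Monocytes made up 6.30% of kept cells in WT and 1.27% in CCR2KO (mean over tags), scar-type macrophages 6.30% and 0.914%, interstitial macrophages 3.02% and 1.90%, and conventional dendritic cells 2.34% and 1.57%. Alveolar macrophages stood at 4.98% and 4.78%, neutrophils at 5.82% and 7.88%, and alveolar type 2 cells, a source of Csf2, at 5.42% and 10.4%. With monocytes and scar-type macrophages left out of every tag, the change of Csf1r was -0.68 (edgeR adjusted p = 0.0450), that of Csf2ra -0.58 (adjusted p = 0.0202) and that of Csf2rb -0.27 (adjusted p = 0.450). With interstitial macrophages left out as well, Csf1r was at -0.55 (adjusted p = 0.119) and Csf2ra at -0.46 (adjusted p = 0.0548), neither past the threshold. With alveolar type 2 cells left out, Csf2 was at 0.81 (SE 0.46, edgeR adjusted p = 0.314), beside 1.03 (SE 0.22) with them. The estimate without these cells was thus lower and less precise. The part of alveolar type 2 cell numbers in the Csf2 change was not tested.

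Within cell classes the level in the summed reads of a class was compared, and few differences passed. Csf2ra had enough reads to test in 21 of the 26 classes, Csf1 in 20, Csf3r in 18, Csf1r and Csf2rb in 15 each, Il34 in 6 and Csf2 and Csf3 in 3 each. Of these 101 gene and class pairs, 1 was called higher in CCR2KO, where 0.0712% of all gene and class pairs were, and 0 were called lower, where 0.253% were (edgeR quasi-likelihood test). At an unadjusted p under 0.05 there were 3 higher and 16 lower. DESeq2 called 2 pairs lower, Csf1r (log2 change -2.92, adjusted p = 0.00603) and Csf2rb (-1.97, adjusted p = 0.0345), both in activated fibroblasts. The edgeR test gave these pairs -2.89 (adjusted p = 0.201) and -1.95 (adjusted p = 0.247). Both receptors were low in activated fibroblasts. Csf1r ran from 1.89 to 20.1 CPM there in WT and from 0 to 5.26 CPM in CCR2KO. Csf2rb ran from 3.03 to 29.6 CPM in WT and from 0.678 to 7.18 CPM in CCR2KO. Tags of WT B cells reached 29.7 CPM of Csf1r and 62.7 CPM of Csf2rb. Whether free RNA had a part in these low values was not tested.

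The pair called higher was Csf1 in scar-type macrophages. WT tags 1 to 9 ran from 55.1 to 288 CPM (median 121.5). The 6 CCR2KO tags with enough cells, tags 1 to 6, ran from 191 to 627 CPM (median 282). Apart from WT tag 9, at 288 CPM, all WT tags lay below all CCR2KO tags. The log2 change was 1.44 (SE 0.32, edgeR adjusted p = 0.0420), in a class where 0.0667% of genes were called higher. The CCR2KO tags rested on 10 to 38 cells each, against 26 to 202 in WT. DESeq2 also called this pair higher (log2 change 1.59, adjusted p = 0.00128). The edgeR call held with called doublets kept (1.37, adjusted p = 0.0470). The call did not hold with the tag number as a block (1.48, adjusted p = 0.113) or with the span of 3 tag numbers as a covariate (1.52, adjusted p = 0.0965), nor when any of 12 of the 15 tags was left out (adjusted p up to 0.0959), nor when a tag needed at least 20 cells (1.05, adjusted p = 0.169). The share of these cells with a Csf1 read at 5000 reads was 16.5% in WT and 26.7% in CCR2KO (25.0% and 35.6% unthinned), which did not pass in the exact permutation test adjusted over all genes of the class.

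Other marker genes moved with this class. The summed level of the 9 scar-type markers was 9523 to 19962 CPM in WT scar-type macrophages and 24256 to 32789 CPM in CCR2KO, and that of the 9 classical monocyte markers was 3387 to 7711 CPM and 1602 to 4699 CPM. Neutrophils are the class with the most Csf1, and their 12 markers summed to 796 to 2347 CPM in the WT scar-type class and to 492 to 1763 CPM in CCR2KO, where Ly6g and Stfa2l1 were at 0. With only the scar-type macrophages that held no read of 6 neutrophil genes (582 WT and 98 CCR2KO cells), the Csf1 change was 1.43 (edgeR adjusted p = 0.108). The part of the other markers in the Csf1 difference was not tested.

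Csf1r was lower in some classes without passing the test. In conventional dendritic cells it ran from 106 to 274 CPM in WT (median 167) and from 1.48 to 100 CPM in CCR2KO (median 36.8). Every CCR2KO tag was below every WT tag. The log2 change was -2.16 (SE 0.53, edgeR adjusted p = 0.114). In scar-type macrophages the log2 change was -0.85 (SE 0.27, edgeR adjusted p = 0.201). There the CCR2KO tags were 1 to 6 only. WT tags 7 to 9 stood at 681, 465 and 657 CPM, against 266 to 520 CPM in WT tags 1 to 6. Conventional dendritic cells also had less of the 9 classical monocyte markers, which summed to 1470 to 2620 CPM in WT and 235 to 1554 CPM in CCR2KO, and the part of this in the Csf1r values was not tested. In the classes with the most Csf1r the levels were close, with log2 changes of -0.14 (SE 0.13) in interstitial macrophages and -0.17 (SE 0.18) in monocytes. The monocyte class, which joined classical and nonclassical cells, held 1063 WT and 190 CCR2KO cells. Whether its mix differed between genotypes was not tested.

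**Figure D4:**
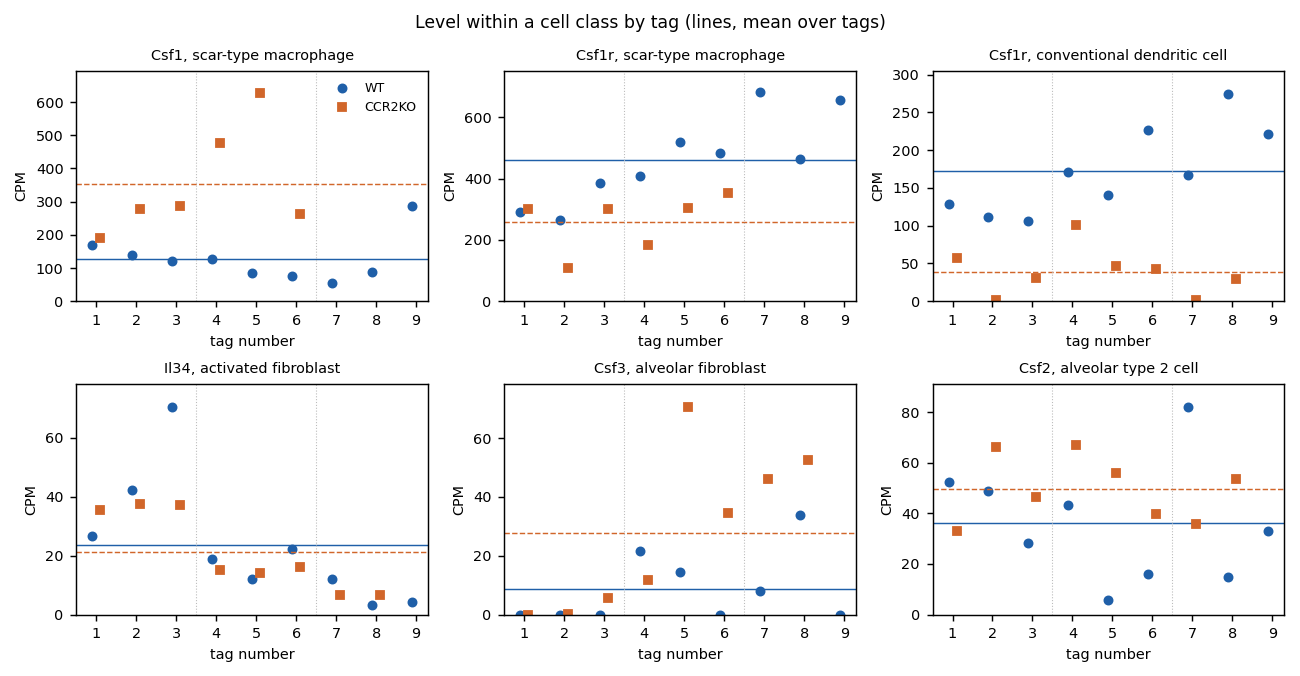
Level within single cell classes by tag (CPM, vertical axis; tag number, horizontal axis), WT as circles, CCR2KO as squares, lines at the mean over tags. Csf1 in scar-type macrophages is higher in CCR2KO except against WT tag 9, Csf1r in conventional dendritic cells does not overlap, and Il34 in activated fibroblasts is highest in tags 1 to 3 of both libraries.

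Csf2ra was detected in fewer CCR2KO than WT cells in 3 myeloid classes. After thinning each cell to 5000 reads, the share of cells with a read was compared by an exact permutation test over tags in 142 gene and class pairs, adjusted over all genes of a class. It was lower in CCR2KO for 8 pairs, where 1.79% of all gene and class pairs were, and higher for 0, where 0.0699% were (at an unadjusted p under 0.05, 42 were lower and 1 higher).

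In interstitial macrophages, 32.7% to 45.9% of WT cells (median 40.5%) and 12.1% to 35.4% of CCR2KO cells (median 25.2%) held a Csf2ra read. The groups overlapped in 1 CCR2KO tag, number 6. The means were 39.9% and 24.5% (exact permutation test, two-sided, adjusted p = 0.0225), in a class where 0.922% of genes were called lower. In scar-type macrophages, 41.4% to 51.6% of WT (median 43.6%) and 23.7% to 40.4% of CCR2KO cells (median 29.7%) held a Csf2ra read. These groups did not overlap, and the means were 44.6% and 30.3% (exact permutation test, adjusted p = 0.0244, 1.91% of genes called lower). The scar-type comparison set CCR2KO tags 1 to 6 against WT tags 1 to 9.

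In neutrophils, 25.3% to 34.9% of WT (median 29.3%) and 16.2% to 25.4% of CCR2KO cells (median 20.5%) held a Csf2ra read. Only CCR2KO tag 8 reached the lowest WT tag. The means were 29.2% and 20.9% (exact permutation test, adjusted p = 0.0207, 2.11% of genes called lower). Among lymphocytes, which should lack the gene, T cells were at 5.45% and 5.24% and B cells at 10.3% and 7.13% (exact permutation test, adjusted p = 0.0869 for B cells). The mean Csf2ra share was lower in CCR2KO in 24 of the 26 classes, and in 17 of the 19 outside the 7 myeloid ones. A lower mean share was thus not particular to the myeloid classes. The part of free RNA in these shares was not tested. Median depths in WT and CCR2KO were 16892 and 14807 reads in T cells, 12783 and 11519 in B cells and 10760.5 and 10228 in neutrophils. When at least 3 reads counted as detection, the adjusted p of the exact permutation test was 0.0824 for Csf2ra in interstitial and 0.0777 in scar-type macrophages, and 0.0403 in neutrophils. Without thinning the Csf2ra shares were 69.8% and 56.3% in interstitial macrophages, 71.6% and 56.1% in scar-type macrophages, 37.1% and 26.6% in neutrophils and 12.6% and 10.0% in T cells.

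The level of Csf2ra did not pass in the same classes. In CPM, its log2 change was -0.89 in interstitial macrophages (SE 0.25, edgeR adjusted p = 0.158), -0.31 in scar-type macrophages (SE 0.23, adjusted p = 0.779) and -0.38 in neutrophils (SE 0.21, adjusted p = 0.997). Interstitial macrophages ran from 135 to 297 CPM of Csf2ra in WT and from 52.1 to 221 CPM in CCR2KO. In alveolar macrophages, the cells most dependent on GM-CSF, the Csf2ra change was -0.15 (SE 0.14) and the Csf2rb change -0.05 (SE 0.14). Fewer genes were detected per cell in CCR2KO in all 26 classes at 5000 reads, for example 1169 against 1073 in interstitial macrophages, 1000 against 870 in scar-type macrophages and 492 against 413 in neutrophils. The part of these library differences in the Csf2ra shares was not tested.

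**Figure D5:**
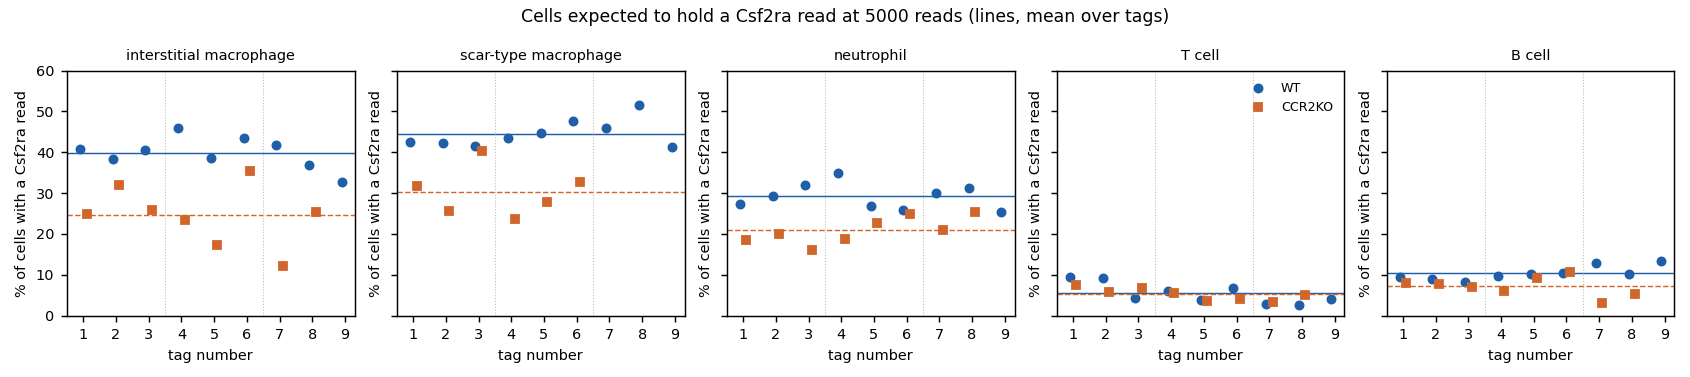
Percent of cells expected to hold a Csf2ra read at 5000 reads per cell (vertical axis) by tag number (horizontal axis) in 5 cell classes, WT as circles, CCR2KO as squares, lines at the mean over tags. Scar-type macrophages do not overlap between genotypes, and of the classes that should lack the gene, T cells lie between 2.62% and 9.51% in both libraries, while B cells run from 8.20% to 13.4% in WT and from 3.00% to 10.6% in CCR2KO.

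The other 5 pairs lower in CCR2KO were in general capillary endothelium (Csf1, Csf1r, Csf2ra and Csf3r), where 17.7% of all genes were called lower, and in adventitial fibroblasts (Csf3r, 1.63%). Csf1 fell from 7.03% to 4.67% of capillary cells (exact permutation test, adjusted p = 0.0282). The 3 receptors there, and Csf3r in adventitial fibroblasts, stood at or below their share in T cells. Csf1r was at 1.85% and 0.428%, against 2.13% and 0.616% in T cells. Csf2ra was at 5.40% and 3.55%, against 5.45% and 5.24%. Csf3r was at 4.18% and 2.63% in capillary cells and 3.08% and 1.59% in adventitial fibroblasts, against 4.97% and 4.00%. The part of free RNA in these shares was not tested.

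In the main producing cells the ligands did not pass the test between genotypes. The log2 difference of Csf1 was 0.13 in neutrophils (SE 0.17, edgeR adjusted p = 0.999), 0.38 in alveolar fibroblasts (SE 0.15, adjusted p = 0.379) and 0.07 in activated fibroblasts (SE 0.21). Csf2 was at 0.43 in alveolar type 2 cells (SE 0.36, edgeR adjusted p = 0.979) and 0.62 in T and innate lymphoid cells (SE 0.64). Csf3 in alveolar fibroblasts was at 1.67 with an SE of 1.14, and Il34 in activated fibroblasts at -0.19 (SE 0.52).

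The receptors of neutrophils and monocytes did not pass either. Csf3r in neutrophils was at 0.03 (SE 0.14). Csf2rb in neutrophils ran from 225 to 645 CPM in WT (median 379) and from 491 to 1139 CPM in CCR2KO (median 523), with a log2 change of 0.48 (SE 0.23, edgeR adjusted p = 0.897). Tag 7 set the upper end in CCR2KO, and the other 7 tags, at 491 to 578 CPM, lay within the WT range. Csf3r in monocytes ran from 53.9 to 143 CPM in WT (median 91.0) and from 48.5 to 259 CPM in CCR2KO (median 164). Of the 8 CCR2KO tags, 5 were above all WT tags and tag 4 was below them, and the log2 change was 0.63 (SE 0.39, edgeR adjusted p = 0.610). The part of the mix of classical and nonclassical monocytes in these values was not tested. In simulated counts the test found 13% of genes changed 2-fold and 31% of genes changed 4-fold in neutrophils, 2% and 19% in monocytes, 16% and 32% in interstitial macrophages and 26% and 67% in alveolar macrophages. Over all cells it found 61% and 86%. The changed genes were drawn at random from all tested genes of a class. These rates are therefore not those of a gene at the level of Csf3r or Csf1 in neutrophils.

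Tags were also described in spans of 3 consecutive numbers, which are spans of numbers and not conditions. Il34 in activated fibroblasts was 26.6, 42.4 and 70.6 CPM in WT tags 1 to 3, 18.9, 12.0 and 22.3 CPM in tags 4 to 6 and 12.2, 3.41 and 4.36 CPM in tags 7 to 9. In CCR2KO the corresponding Il34 values were 35.4, 37.6 and 37.3 CPM, then 15.05, 14.1 and 16.3 CPM, then 6.71 and 6.71 CPM. In both libraries the tags numbered 1 to 3 were the highest.

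Csf1r over all cells was 148, 160 and 172 CPM in WT tags 1 to 3, 208, 215 and 190 CPM in tags 4 to 6, and 109, 114 and 109 CPM in tags 7 to 9. Csf1r in WT monocytes was 969, 1075 and 888 CPM, then 913, 914 and 701 CPM, then 605, 534 and 658 CPM, while in WT scar-type macrophages it was 291, 266 and 385 CPM, then 408, 520 and 485 CPM, then 681, 465 and 657 CPM. The 3 lowest WT Csf1r tags were 7 to 9 in monocytes and 1 to 3 in scar-type macrophages. Csf3 in CCR2KO alveolar fibroblasts was 0, 0.200 and 5.46 CPM in tags 1 to 3, 11.6, 70.4 and 34.4 CPM in tags 4 to 6 and 46.1 and 52.7 CPM in tags 7 and 8, with the low tags numbered 1 to 3.

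Genes that act with these ligands and receptors were taken from lists chosen with earlier results of these data known. Over all cells, where 5.02% of all genes were called higher and 6.47% lower, of the 14 tested genes of the beta common family and other haematopoietic growth factors, 0 rose and 4 fell in CCR2KO: Crlf2 (-0.80), Csf2rb2 (-0.69), Il3ra (-0.59) and Kit (-0.42), which are receptors (1 was higher at an unadjusted p under 0.05). Of 16 genes of M-CSF signalling, 1 rose (Sdc1, 0.55) and 6 fell, among them Spi1 (-1.03), which encodes PU.1, Dok2 (-0.93) and the adaptor Tyrobp (-0.79). Of 16 GM-CSF genes, 1 rose (Socs2, 0.39) and 3 fell: Ccl24 (-2.04), the kinase Pim1 (-0.90) and the transcription factor Irf5 (-0.89). Ccl24 is also on the marker list of scar-type macrophages. As in the other sums over all cells, fewer cells of a type and less RNA per cell cannot be told apart for any of these lists. Of 10 tested G-CSF genes 0 rose, with 0 higher at an unadjusted p under 0.05, and 2 fell, Mmp8 (-0.71) and Socs3 (-0.24). The last list held 16 genes linked to inducers of these ligands, namely cytokines, receptors, the antagonist Il1rn and transcriptional regulators. Its rises and falls therefore have no common direction. In it 3 rose (Il1r1 at 0.87, Il33 at 0.85 and Nfkbiz at 0.23) and 3 fell (Il1b at -0.83, Tgfb1 at -0.59 and Il17ra at -0.38). Median log2 changes were -0.30, -0.26, -0.21, -0.10 and 0.00 for the lists in that order, beside 0.01 over all genes (edgeR).

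Within classes the same lists gave 4 calls in the monocytes, scar-type, interstitial and alveolar macrophages and neutrophils. Pim1, a target of cytokine receptor signalling, fell in neutrophils (-0.92, edgeR adjusted p = 0.00826, 0.0922% of genes called lower) and in scar-type macrophages (-0.67, adjusted p = 0.0433, 0.433% called lower). In monocytes Tyrobp fell (-0.42, edgeR adjusted p = 0.0415, 2.45% called lower) and Klf4, a transcription factor of monocytes, rose (0.66, adjusted p = 0.0489, 0.281% called higher). The monocyte class joined classical and nonclassical cells, and the part of their mix in these changes was not tested. In alveolar and interstitial macrophages 0 genes of these lists passed in the edgeR test, with 4 and 8 at an unadjusted p under 0.05.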

How the data were processed

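The deposited tables hold raw counts per gene and cell, 1 table per genotype; they were treated as reads, not molecules, because this is not given in the sources used here. The tools named, with no role, per the submitters' processing notes were Bowtie2 2.4.2, cutadapt 2.10 and R 3.6.3, with the build GRCm38. Cells under a doublet heading and 2 columns of no tag were left out. Cells with under 200 genes or over 25% mitochondrial reads were dropped, called doublets (Scrublet, 2.15% and 2.21%) were removed, and cells were clustered (scanpy 1.11.5, Leiden resolution 1.5, 2000 variable genes, 40 components) without the 8 genes and Ccr2, and named from marker lists.

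Reads were summed per class and tag (at least 10 cells) and tested with edgeR 4.0.16 (R 4.3.3), quasi-likelihood, with TMM scaling and Benjamini-Hochberg adjustment over all genes of a class at 0.05. DESeq2 1.42.0 was an alternative. Shares of cells with a read used thinning to 5000 reads per cell, worked out as the expected share, leaving out 174 shallower CCR2KO cells and 0 WT cells. Permutation p-values of shares were adjusted over all genes of a class, not over the 142 pairs as first planned. The edgeR and permutation steps were tested on simulated data. Amplified reads are not independent molecules, so no counting intervals are given.

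The 8 genes, the lists and the classes were chosen with earlier results of these data known. Genes named beside the 8 were the 3 with the closest class pattern, and list genes past the threshold. Same-numbered tags correlated at -0.007 to 0.53 in their deviations, so numbers were not taken to pair tags.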

Additional observations from a re-analysis of the deposited data

Results flagged for a closer look

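In 8 cases a described value stood apart from the other tags of their group, among 70 groups examined by the gap to the nearest tag over the range, where chance gives about 1 in 20. Csf1 in adventitial fibroblasts was 232 CPM in WT tag 6, with the next at 166 CPM. Csf1 in scar-type macrophages was 288 CPM in WT tag 9, with the next at 170.5 CPM, and without that tag the Csf1 change was 1.67 (edgeR adjusted p = 0.0096). Csf2rb in neutrophils was 1139 CPM in CCR2KO tag 7 (next 578 CPM). Csf2rb in scar-type macrophages was 1048 CPM in CCR2KO tag 4 (next 568.4 CPM) and 725 CPM in WT tag 9 (next 502 CPM). Csf3 was high in WT tag 3, at 226 CPM in adventitial fibroblasts (next 61.7 CPM) and 12.0 CPM over all cells (next 5.77 CPM). Il34 in alveolar type 2 cells was lowest in CCR2KO tag 3, at 10.1 CPM (next 22.9 CPM).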

How the results depend on the processing

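Over all cells, 1 of the 8 genes (Csf2) was called higher and 3 lower in CCR2KO under edgeR. The count of lower genes was 2 or 3 with each tag left out in turn and 4 under the strict cell filter, where Csf3r was at -0.66 (adjusted p = 0.00485). In comparisons added after seeing the data, the count higher was 0 without alveolar type 2 cells (Csf2 at 0.81, SE 0.46). The count lower was 0 without monocytes, scar-type and interstitial macrophages. Csf3r then changed sign, to 0.0575, and to 0.0270 without the first 2 of these classes. The cause was not tested. Within classes, 1 pair was called higher. The count was 0 with no filter on low counts (Csf1 in scar-type macrophages, edgeR adjusted p = 0.0904), with the tag-span covariate (adjusted p = 0.0965) and with at least 20 cells per tag. It was also 0 with the strict cell filter (1.25, edgeR adjusted p = 0.0912) and with the 8 genes kept in clustering (1.19, adjusted p = 0.143). At cluster resolution 0.8 it was 0 too, but there scar-type and interstitial macrophage markers fell in the same cluster. The Csf1 pair could not be tested at that resolution. Leaving out a tag gave 0 to 1 pairs higher and 0 to 1 lower. Against 0 pairs called lower, DESeq2 gave 2, and 1 each came with no filter (Csf1r in T and innate lymphoid cells), with at least 20 cells per tag (Csf2ra in conventional dendritic cells, -1.60, adjusted p = 0.0440) and at resolution 0.8 (Csf1r in 1 cluster, adjusted p = 0.0169). The count of lower shares, 8 in the main setting, was 6 with thinning to 2000 reads and 6 with at least 3 reads. Each count of 6 included at least 1 pair that was not among the 8. Csf3r in adventitial fibroblasts and Csf2ra and Csf3r in general capillary endothelium passed in neither setting. Csf2ra in interstitial and scar-type macrophages passed at 2000 reads only. Csf1 and Csf1r in general capillary endothelium and Csf2ra in neutrophils passed in both. Csf2rb summed with Csf2rb2 changed no call.

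With the tag number as a replicate block, over all cells 1 gene was higher and 3 lower, and within classes 0 pairs were higher (Csf1 in scar-type macrophages 1.48, edgeR adjusted p = 0.113) and 0 lower. Of WT tags 1 to 8, 3 matched the CCR2KO tag of their own number best and 7 a tag of their own span. The GEO samples themselves are 1 library per genotype, and no paired analysis of libraries was possible because there is 1 pair.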
